A study of Mus musculus with 70 samples.

Results

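Effector regulatory T cells (Tregs) of the mouse spleen were compared with and without ST2, the receptor for the alarmin IL-33. The comparison rests on 10 of the 70 libraries of the series, 5 of spleen ST2+ CD44hi Tregs and 5 of spleen ST2- CD44hi Tregs. They were chosen by tissue, by sorted population and by a total of more than 1000000 counts, which all 10 passed. Each of the 5 mice gave 1 library of each population, so the libraries pair by animal. The mice were male Foxp3-YFP-cre animals with the Foxp3tm4(YFP/icre)Ayr allele, aged 16.6, 17.1, 17.4, 18.1 and 18.6 weeks (mice 1 to 5), and received no treatment named in the labels. All groups carry the YFP and Cre reporter, which is driven from the Foxp3 locus. Splenic CD4 T cells were enriched on magnetic columns, and 220 live YFP+ CD4+ cells that carried CD45.2 and lacked CD8 and CD11b, among other markers, were sorted per library. Blood, lungs, visceral adipose tissue (VAT), colon and skin of the same mice were also sampled, and ST2- CD44lo central Tregs were sorted from spleen and lungs. The spleen central Tregs, 5 libraries, serve here as a further reference.

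Tregs are CD4 T cells that depend on the transcription factor FOXP3 and restrain immune responses. Central Tregs recirculate through lymphoid organs, whereas effector Tregs carry high CD44 and include cells with the phenotype of nonlymphoid tissues. ST2, encoded by Il1rl1, pairs with IL1RAP to signal through MYD88 when IL-33 is released by damaged or stressed cells. In Tregs, ST2 is known as a mark of cells that populate barrier and adipose tissues, and GATA3, the Th2 lineage factor, is known to act on Il1rl1. Another branch of splenic effector Tregs, the follicular regulatory T cells, uses CXCR5 to enter B cell follicles.

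Total counts per library were 1852476 to 2625746 in ST2+ and 2195741 to 2656728 in ST2- CD44hi Tregs, with medians of 2451402 and 2276631. Levels are given as CPM, counts per 1000000 counts of a library after scaling for composition (TMM factors), and 1 CPM is therefore about 2 counts. Foxp3 was present in all 10 libraries, at 131 to 214 CPM in ST2+ and 118 to 162 CPM in ST2- CD44hi Tregs. The summed level of 12 T cell genes was 4769 to 5343 CPM in ST2+ and 5177 to 5730 CPM in ST2- libraries, and the summed levels of 13 Treg identity genes, at 5444 to 6224 and 5271 to 6211 CPM, overlapped. Of the genes of other cells, 16 myeloid genes summed to at most 22.2 and 31.7 CPM with 8 of them at 0, among them Csf1r, Adgre1 and Itgam. The 15 B cell genes summed to 1127 to 1319 and 1059 to 1183 CPM, with Ms4a1, Ebf1 and Fcer2a at 0 and most of the sum from Ighm and Cd74. The 12 CD8 T and NK cell genes summed to 108 to 144 and 132 to 216 CPM with Cd8a and Ncr1 at 0, and 11 mast cell and basophil genes summed to at most 8.20 and 8.6 CPM. Erythroid genes, 9 measured, summed to 25.0 to 50.8 and 10.8 to 50.6 CPM, and 12 endothelial and stromal genes to 68.2 to 189 and 159 to 181 CPM with Cdh5 and Kdr at 0. The ranges of ST2+ and ST2- libraries overlapped in each of these lists, and no gene of these other-cell lists passed the test between them. A further list, 14 genes that ST2+ Tregs are known to share with type 2 innate lymphoid cells, did not overlap. It summed to 1294 to 1486 CPM in ST2+ and 282 to 466 CPM in ST2- libraries, and includes the sorted gene Il1rl1. Of its members, 4 passed the test (Il1rl1, Gata3, Klrg1 and Il9r). The presence of such cells was not tested. In bulk libraries of sorted cells, a larger share of cells with a transcript and more of it per cell cannot be told apart.

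The sequences before Il1rl1, which encodes the sorted receptor, and before Il9r, a receptor gene higher in the same cells, are shown because both hold a GATA motif close to an annotated start. The letters come from RefSeq on GRCm38.p6 and cover the 250 bases upstream of a transcript start, read 5′ to 3′ on the strand of the gene. Capitals mark AGATAA or TGATAA, or the same word on the other strand (TTATCT or TTATCA). The upstream start of Il1rl1 lies at the start of the gene, and the other start lies 10059 bases further downstream, with 2 bases of its window inside an annotated exon.
Il1rl1, upstream start, chr1:40429320-40429569, + strand: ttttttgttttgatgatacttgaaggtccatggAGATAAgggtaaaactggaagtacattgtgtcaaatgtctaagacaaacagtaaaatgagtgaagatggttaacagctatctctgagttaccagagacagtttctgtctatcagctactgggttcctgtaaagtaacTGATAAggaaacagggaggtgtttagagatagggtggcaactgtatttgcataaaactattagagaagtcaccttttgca
Il1rl1, downstream start, chr1:40439379-40439628, + strand: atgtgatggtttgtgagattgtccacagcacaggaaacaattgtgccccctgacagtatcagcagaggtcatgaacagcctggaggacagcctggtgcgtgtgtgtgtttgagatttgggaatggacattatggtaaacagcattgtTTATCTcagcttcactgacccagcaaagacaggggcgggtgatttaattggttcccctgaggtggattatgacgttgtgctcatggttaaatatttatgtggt
Il9r, chr11:32200280-32200529, - strand: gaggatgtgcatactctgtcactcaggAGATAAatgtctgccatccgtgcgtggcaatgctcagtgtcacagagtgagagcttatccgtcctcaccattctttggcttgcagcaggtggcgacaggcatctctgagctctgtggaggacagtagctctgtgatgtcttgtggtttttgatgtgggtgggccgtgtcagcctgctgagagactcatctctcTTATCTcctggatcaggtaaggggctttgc
The first window holds the motif at 2 places, the second at 1 and the third at 2. Windows before Ccr2 and Ctla2a, which are also higher in these cells, hold the motif as well and are not shown. Of the 42 genes that passed the test below, 30 were in the table of promoters, with 40 windows, and 5 of these windows (12.5%) hold the motif, against 5452 of 32851 windows (16.6%) over all genes. The share was not higher in the windows of these genes than over all genes, and a match describes the letters and does not mark a bound site. The genes without an entry were Camk2n1, Cd200r1, Crem, Ctsh, Cxcr5, Il10ra, Klrg1, Lyn, Myo1d, Neb, Rtn4rl1 and Trf.

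ST2+ CD44hi Tregs of the spleen differed from their ST2- counterparts in 42 of 13173 genes tested (0.319%), of which 41 were higher (0.311%) and 1, Cxcr5, was lower (0.00759%). DEGs had to change at least 1.5-fold and to pass edgeR's quasi-likelihood test at an adjusted p (Benjamini-Hochberg) no greater than 0.05, fitted to all 67 libraries above the count minimum. That fit had 1 term for each of the 14 groups and none for mouse, and its spread was estimated over all tissues. The higher genes encode the Th2 factor GATA3, the lipid-sensing nuclear receptor PPARG, receptors for IL-7, IL-9 and IL-10, the chemokine receptors CCR2, CCR4 and CXCR6, the inhibitory receptors KLRG1 and CD200R1, and the secreted factors FGL2 and METRNL. The median fold change of the 41 higher genes was 4.18 and the smallest was 1.51. In 37 of the 41 genes all ST2+ libraries were above all ST2- libraries, against 172 of all genes tested (1.31%), and in 40 of the 41 the ST2+ library was the higher one in each of the 5 mice, against 722 of all genes (5.48%). The 41 genes were called on these same libraries, so both counts describe the calls and are no added evidence. The reverse arrangement, all ST2+ libraries below all ST2- libraries, was found in 148 genes (1.12%), although only Cxcr5 among them passed the test.

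The number and direction of the DEGs differed between fits. With mouse as a block and the spread taken from these 10 libraries alone, 80 genes were higher (0.638%) and 50 lower (0.399%) in ST2+ CD44hi Tregs, of 12533 tested, and 33 of the 42 genes were among them. With mouse as a block over all 14 groups, 52 genes were higher and 2 lower, and all 42 were kept. The weighted linear model that the study used, voom with quality weights, gave 133 higher (1.01%) and 92 lower (0.698%) in the 14 groups, with 39 of the 42 among them. Without all libraries of mouse 2, 3, 4 or 5, in every tissue, the number of DEGs was 23, 16, 16 and 24, and without those of mouse 1 it was 30. The direction of difference of each of the 42 genes was the same under all 31 alternative settings, and 21 of the 42 kept their call without each single spleen library in turn. Il1rl1, Gata3, Tent5a, Pim1, Klrg1, Neb, Il7r, Metrnl, Il9r and Gna15, 10 genes in all, also kept it without each mouse. The calls of Anxa1, Arl4a, Arl5a, Camk2n1, Ccr4, Cldnd1, Cpm, Ctsh, Cxcr5, Cxcr6, Il10ra, Kctd12, Ky, Lyn, Myo1d, Nck2, Pcyt1a, Pparg, Rfx1, Rgs2 and Rtn4rl1 were lost without at least 1 single library.

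**Figure D1:**
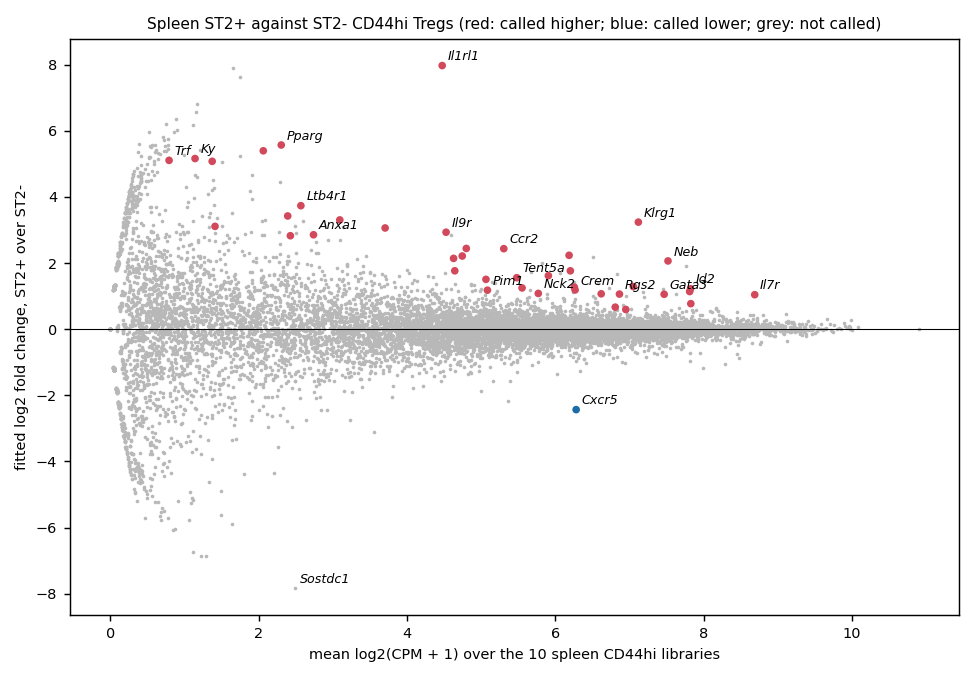
Fitted log2 fold change of spleen ST2+ over ST2- CD44hi Tregs (vertical axis) against the mean log2(CPM + 1) over the 10 libraries (horizontal axis), 1 point per gene tested, with higher DEGs in red, lower DEGs in blue and other genes in grey. The 41 higher DEGs are spread over low and high levels, and the single lower DEG is Cxcr5.

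Il1rl1 checks the sort and is no finding. Its level was 230, 264, 317, 261 and 301 CPM in the ST2+ libraries of mice 1 to 5 and 0.374, 0.419, 1.30, 3.32 and 0 CPM in the ST2- libraries. The gene lies on chr1:40429570-40465415, directly before Il18r1 (chr1:40465552-40500854) and Il18rap (chr1:40515362-40551705), which encode the receptor chains for IL-18. Il18r1 was at 209 ± 46.7 CPM in ST2+ and 107 ± 28.3 CPM in ST2- libraries (SD, n = 5), without overlap, at an adjusted p of 0.43 over the 14 groups and 0.00075 with mouse as a block in the 10 libraries, both by edgeR's quasi-likelihood test. Il18rap was at 56.8, 165, 169, 124 and 136 CPM against 59.8, 54.4, 67.4, 32.7 and 30.2 CPM, with mouse 1 alone not higher in ST2+ Tregs, at adjusted p of 0.17 and 0.03 in the same edgeR fits. Of 15 genes of the IL-1 receptor family and its signalling, Il1rl1 alone passed the test over 14 groups, and the list median was a log2 fold change of -0.10 against 0 over all genes.

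Among transcription factors, Gata3, the master factor of Th2 cells, was the DEG with the smallest adjusted p after Il1rl1. Gata3 (chr2:9857078-9890034) was at 284, 271, 223, 273 and 229 CPM in ST2+ CD44hi Tregs and at 90.1, 129, 123, 132 and 141 CPM in ST2- CD44hi Tregs. Every ST2+ library was above every ST2- library, and the ST2- libraries overlapped the central Tregs (82.1 to 132 CPM). The log2 fold change was 1.06 ± 0.13 (SE), with an adjusted p of 4.5e-07 in edgeR's quasi-likelihood test.

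Id2, which encodes an inhibitor of E proteins that accumulates in effector Tregs, was at 311, 344, 311, 389 and 381 CPM in ST2+ and at 128, 144, 131, 149 and 193 CPM in ST2- CD44hi Tregs. The 2 populations did not overlap, and both were above the central Tregs at 15.8 to 63.5 CPM (log2 fold change of ST2+ over ST2- 1.22 ± 0.26, adjusted p = 0.011, edgeR's quasi-likelihood test). Its counterpart Id3 was lower in ST2+ Tregs of all 5 mice, at 147 ± 14.6 against 206 ± 23.2 CPM, with an adjusted p of 1 over 14 groups and 0.021 with mouse as a block in the 10 libraries (edgeR's quasi-likelihood test).

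Pparg, the regulator of lipid handling known from VAT Tregs, was at 41.7, 17.4, 12.1, 22.2 and 12.3 CPM in ST2+ CD44hi Tregs. It was at 0 in 4 of the 5 ST2- libraries and in all 5 central Treg libraries, and at 1.76 CPM in the ST2- library of mouse 5. The adjusted p was 0.045 in edgeR's quasi-likelihood test, and the call was lost without the ST2+ library of mouse 1, 2 or 4 or without the ST2- library of mouse 1, 2, 3 or 4, with an adjusted p of up to 0.161.

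Of 16 transcription factors of effector and tissue Tregs, 3 rose (Gata3, Id2 and Pparg), none fell, and 13 did not pass the test. The list median was a log2 fold change of 0.34. Over all genes tested, 0.311% were called higher and 0.00759% lower, and the counts of this and the other lists stand beside these shares. All gene lists were written with earlier results of these data known. Rora, which encodes a nuclear receptor shared with type 2 innate lymphoid cells, was at 242 to 332 CPM in ST2+ and 120 to 165 CPM in ST2- libraries. Its groups did not overlap, yet its adjusted p was 0.08 over 14 groups and 9.2e-05 with mouse as a block in the 10 libraries (edgeR's quasi-likelihood test). Prdm1, which encodes BLIMP1, was at 109 to 158 and 26.9 to 122 CPM, with adjusted p of 0.72 and 0.034 in these edgeR fits. Rfx1, a winged-helix factor, rose by a log2 fold change of 1.25 ± 0.29, from 30.6 ± 5.53 to 72.8 ± 25.1 CPM (SD, n = 5), and Crem, a cAMP-responsive factor, rose by 1.19 ± 0.25, from 51.3 ± 10.9 to 117 ± 28.7 CPM.

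**Figure D2:**
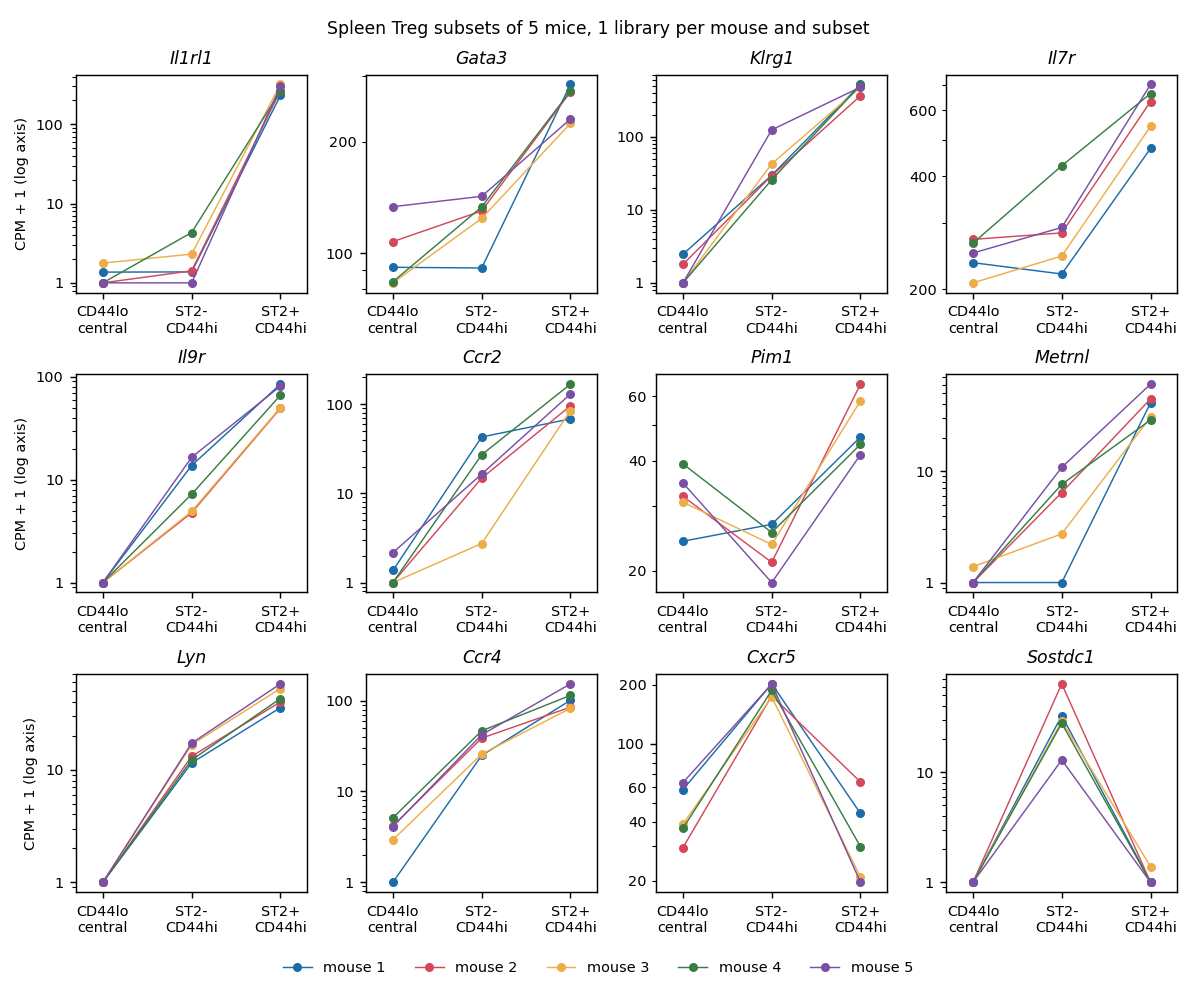
Levels of 12 genes in the central, ST2- CD44hi and ST2+ CD44hi Treg libraries of the spleen (left to right), as CPM plus 1 on a log axis, with 1 point per library and a line joining the libraries of a mouse. Gata3, Klrg1, Il9r, Ccr2 and the other higher DEGs shown go up from ST2- to ST2+ CD44hi Tregs in every mouse, and Cxcr5 and Sostdc1 go down.

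Of 24 cytokine receptor genes tested, Il7r, Il9r and Il10ra rose, none fell, and the list median was a log2 fold change of -0.01. Il7r, the receptor chain for the survival factor IL-7, was at 473, 631, 542, 663 and 701 CPM in ST2+ and at 219, 282, 244, 426 and 291 CPM in ST2- CD44hi Tregs. The central Tregs, at 207 to 271 CPM, lay near the ST2- Tregs, and the log2 fold change of ST2+ over ST2- was 1.04 ± 0.17 (adjusted p = 0.00023, edgeR's quasi-likelihood test).

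Il9r, the receptor chain for the type 2 cytokine IL-9, was at 83.7, 48.3, 49.2, 65.1 and 80.1 CPM in ST2+ CD44hi Tregs. In the ST2- libraries it was at 12.7, 3.77, 3.91, 6.22 and 15.5 CPM, and no central Treg library held a count. The groups did not overlap, with a log2 fold change of 2.93 ± 0.53 (adjusted p = 0.0012, edgeR's quasi-likelihood test), and the call was kept under all 31 alternatives.

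Il10ra, which encodes the ligand-binding chain of the IL-10 receptor, was at 349, 320, 414, 341 and 287 CPM against 71.4, 165, 172, 182 and 187 CPM. The ST2- library of mouse 1 was lower than the other ST2- libraries. The adjusted p was 0.042 in edgeR's quasi-likelihood test and rose to as much as 0.234 without a single library, and leaving out any library but the ST2+ library of mouse 5 lost the call. Il6st, the shared signalling chain of the IL-6 family, went the other way at 56.8 to 194 against 141 to 297 CPM, lower in all 5 mice but with overlapping groups (adjusted p = 0.22, or 0.0064 with mouse as a block in the 10 libraries, edgeR's quasi-likelihood test).

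By number, receptors for chemoattractants and cytoskeletal genes held the most calls, in lists of unequal size. Of 21 chemoattractant receptors tested, Ccr2, Ccr4, Cxcr6 and Ltb4r1 rose and Cxcr5 fell, with a list median of 0.36. Of all genes tested, 0.319% were called. Ccr2 (chr9:124101950-124113557), the receptor for CCL2 that guides cells into inflamed tissue, was at 67.4, 94.8, 83.9, 167 and 129 CPM in ST2+ CD44hi Tregs and at 41.9, 13.8, 1.74, 26.1 and 15.5 CPM in ST2- CD44hi Tregs. The lowest ST2+ library was above the highest ST2- library, and central Tregs were at no more than 1.16 CPM (log2 fold change of ST2+ over ST2- 2.43 ± 0.48, adjusted p = 0.0032, edgeR's quasi-likelihood test). By flow cytometry, the study found CCR2 on a larger share of ST2+ than ST2- CD44hi Tregs in blood and VAT, and not in spleen. In spleen, it found CCR3 and CCR4 on larger shares of ST2+ Tregs.

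Cxcr6 (chr9:123806475-123811760), the receptor for CXCL16, was at 208, 150, 139, 171 and 192 CPM against 28.0, 25.1, 22.6, 17.0 and 88.2 CPM. The ST2- library of mouse 5 stood above the other 4 but below every ST2+ library. The log2 fold change was 2.23 ± 0.47 with an adjusted p of 0.0078 in edgeR's quasi-likelihood test, or 0.0504 without the ST2- library of mouse 4.

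Ccr4 (chr9:114490316-114504916), a receptor for CCL17 and CCL22 and a mark of Th2 and skin-homing T cells, was at 100, 84.0, 81.6, 114 and 152 CPM against 23.9, 37.7, 24.8, 45.6 and 41.1 CPM, without overlap. Its adjusted p was 0.024 in edgeR's quasi-likelihood test, and up to 0.113 without the ST2+ library of mouse 4 or 5 or the ST2- library of mouse 1, 2 or 3, each of which ended the call. Ltb4r1, the high-affinity receptor for leukotriene B4, was at 7.58, 7.51, 20.3, 52.7 and 25.4 CPM against 0.374, 0, 1.74, 0 and 5.62 CPM (log2 fold change 3.73 ± 0.63, adjusted p = 0.00027, edgeR's quasi-likelihood test). The ST2+ libraries of mice 1 and 2 were the lowest of their group and still exceeded the highest ST2- library.

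Receptors that did not pass included both low and abundant ones. Ccr3, the eotaxin receptor, was at 5.16 to 33.6 CPM in ST2+ and 0 to 9.84 CPM in ST2- libraries, and Ccr10 was at 0 to 11.3 and 0 to 5.27 CPM. Ccr8, at 162 to 216 and 118 to 188 CPM, and Cxcr4, at 24.6 to 55.8 and 10.9 to 41.1 CPM, overlapped between the groups. Cxcr3, the Th1-associated receptor, was at 288 to 340 and 320 to 372 CPM with overlapping groups. Gpr15, a gut-homing receptor, was at 80.8 to 172 and 13.8 to 91.4 CPM, higher in ST2+ Tregs of all 5 mice (adjusted p = 0.2, or 0.0078 with mouse as a block in the 10 libraries, edgeR's quasi-likelihood test).

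Among receptors at the cell surface that restrain lymphocytes, Klrg1 and Cd200r1 rose. Klrg1 (chr6:122270596-122282882), which encodes an inhibitory receptor for cadherins and marks differentiated effector cells, was at 522, 365, 479, 511 and 479 CPM in ST2+ CD44hi Tregs and at 28.8, 28.5, 41.7, 24.9 and 124 CPM in ST2- CD44hi Tregs. The ST2- library of mouse 5 was the highest of its group and remained far below the ST2+ libraries, and central Tregs were at no more than 1.47 CPM (log2 fold change of ST2+ over ST2- 3.24 ± 0.52, adjusted p = 0.00016, edgeR's quasi-likelihood test). Cd200r1, the receptor for the inhibitory ligand CD200, was at 163 to 240 CPM against 48.2 to 115 CPM, with a log2 fold change of 1.29 ± 0.25. Of 17 inhibitory and activation receptors tested these 2 rose and none fell, with a list median of 0.26. The costimulatory receptor gene Cd28 was lower in all 5 mice and without overlap, at 290 to 429 against 461 to 545 CPM, at an adjusted p of 0.073 (0.0056 with mouse as a block in the 10 libraries, edgeR's quasi-likelihood test) and a fold change below 1.5. Lyn, a Src family kinase that acts downstream of inhibitory receptors, was at 34.5, 39.0, 51.5, 41.8 and 56.8 CPM against 10.5, 12.1, 15.7, 11.2 and 16.2 CPM. No central Treg library held a Lyn count, and its adjusted p was 0.02 (edgeR's quasi-likelihood test), rising to as much as 0.0719 without the ST2+ library of mouse 5 or the ST2- library of mouse 1, 2 or 4, each of which ended the call.

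Of 14 suppressive and repair molecules tested, Fgl2 and Metrnl rose, none fell, and the list median was 0.62. Fgl2, a secreted inhibitor of dendritic cells and T cells, was at 145, 139, 160, 124 and 127 CPM in ST2+ and 20.2, 63.2, 30, 37.7 and 53.8 CPM in ST2- CD44hi Tregs, against 0.366 to 4.26 CPM in central Tregs. The groups did not overlap (log2 fold change 1.76 ± 0.35, adjusted p = 0.0032, edgeR's quasi-likelihood test). Metrnl, which encodes the secreted factor meteorin-like, was at 40.2, 43.6, 29.7, 27.9 and 59.6 CPM against 0, 5.44, 1.74, 6.63 and 9.84 CPM, and the central Tregs were at no more than 0.387 CPM. Il10 was higher in ST2+ Tregs of all 5 mice, at 30 to 61 against 4.35 to 29.9 CPM, without passing the test (adjusted p = 0.13, or 0.1 with mouse as a block in the 10 libraries, edgeR's quasi-likelihood test). Areg, the epidermal growth factor family member of tissue repair, was at 22.2 to 40.8 and 8.23 to 27.8 CPM with overlapping groups.

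**Figure D3:**
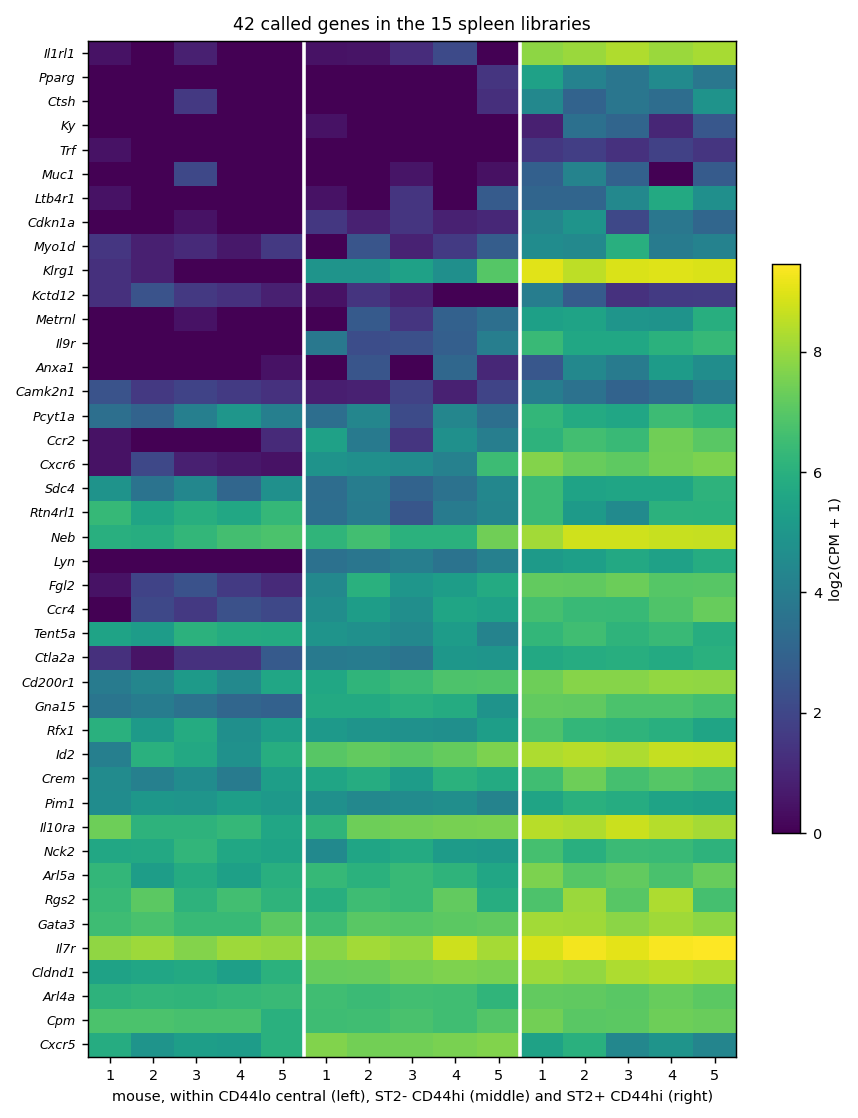
Heat map of the 42 DEGs in the 15 spleen libraries, with log2(CPM + 1) as colour, 1 line per gene and, from left to right, the 5 central, 5 ST2- CD44hi and 5 ST2+ CD44hi libraries in the order of mice. Genes such as Klrg1, Il9r, Lyn and Ccr2 brighten from central to ST2- to ST2+ CD44hi Tregs, whereas Gata3, Neb, Il7r and Rgs2 are at similar levels in ST2- CD44hi and central Tregs.

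Genes of the cytoskeleton and trafficking held 5 DEGs of 18 tested, all higher (Neb, Ky, Myo1d, Arl4a and Camk2n1). Their list median was 1.40 against 0 over all genes, and 17 of 18 log2 fold changes were positive. Like the other lists, this list was assembled with earlier results of these libraries known, so its direction is not independent evidence. Neb, which encodes the giant actin-binding protein nebulin of muscle, was at 282, 431, 437, 403 and 393 CPM against 71.4, 95.4, 64.8, 65.5 and 167 CPM. The ST2+ library of mouse 1 was the lowest and the ST2- library of mouse 5 the highest of its group, and they did not overlap (log2 fold change 2.06 ± 0.34, adjusted p = 0.00016, edgeR's quasi-likelihood test). Myo1d, a class I myosin, was at 14.5 to 60.9 against 0 to 5.97 CPM, and Arl4a, a small GTPase, at 132 to 154 against 72.7 to 96.1 CPM. Ky, of the muscle protein kyphoscoliosis peptidase, had 1 count over the ST2- libraries, and the ratio of scaled counts was 61.5 (95% counting interval 10.6 to 2.47e+03). Camk2n1, an inhibitor of CaM kinase II, was at 7.02 to 15.2 against 0.748 to 2.81 CPM.

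Signalling and survival genes made up a further group of DEGs. Pim1, a kinase induced by cytokines, rose from 22.1 ± 3.32 to 50.1 ± 9.98 CPM (SD, n = 5) and was the only DEG of 14 STAT and SOCS pathway genes. Cdkn1a, which encodes the cell cycle inhibitor p21, was at 3.12 to 29.1 CPM against 0.83 to 1.87 CPM and was the only DEG of 16 cyclins, CDK inhibitors and survival genes. Gna15, a G protein subunit of blood cells, rose from 49.7 ± 12.6 to 120 ± 21.8 CPM and Rgs2, a regulator of G protein signalling, from 86.9 ± 35.3 to 182 ± 96.4 CPM, the only DEGs among 17 G protein and RGS genes. Rgs2 was higher in ST2+ Tregs of all 5 mice although its groups overlapped, since both libraries of mice 2 and 4 were high. Tent5a, a poly(A) polymerase, rose from 25.9 ± 7.46 to 76.3 ± 13.2 CPM, with an adjusted p of 5.5e-05 in edgeR's quasi-likelihood test. Nck2, an adaptor to actin, rose from 38.0 ± 12.4 to 80.3 ± 15.8 CPM.

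The other higher DEGs encode surface, metabolic and lysosomal proteins. Sdc4, a heparan sulfate proteoglycan, rose from 12.4 ± 5.17 to 58 ± 18.7 CPM, and Cpm, a surface carboxypeptidase, from 100 ± 12.4 to 152 ± 18.6 CPM. Pcyt1a, an enzyme of phosphatidylcholine synthesis, rose from 12.4 ± 6.90 to 67.3 ± 16.5 CPM and Ctla2a, a cysteine protease inhibitor, from 20 ± 9.53 to 57.1 ± 5.22 CPM. Cldnd1, a claudin domain protein, rose from 174 ± 20 to 298 ± 42.3 CPM and Arl5a, a small GTPase of the Golgi, from 68.5 ± 13.4 to 143 ± 32.9 CPM. Rtn4rl1, a Nogo receptor family member, was at 21.9 to 85.3 against 4.78 to 18.6 CPM, and differed from most other higher DEGs in that central Tregs, at 44.5 to 79.9 CPM, were at the level of ST2+ Tregs. Anxa1, an annexin with anti-inflammatory activity, was at 4.93 to 35.1 against 0 to 7.87 CPM with overlapping groups, the only DEG of 13 S100, annexin and galectin genes.

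Several low genes passed on few counts. Trf, the iron carrier transferrin, was at 1.56 to 2.58 CPM in ST2+ libraries and at 0 in all ST2- libraries, which makes it at least 8.34-fold higher against a floor of 3 counts over the ST2- group. Ctsh, a lysosomal cathepsin, was at 7.04 to 28.2 CPM and above 0 in 1 ST2- library, at 1.41 CPM. Muc1, a membrane mucin, was at 0 in the ST2+ library of mouse 4 and at 5.65 to 17.8 CPM in the others, with a count ratio of 45.9 (95% counting interval 12.3 to 385). Kctd12, an auxiliary subunit of GABA-B receptors, was at 1.56 to 15.2 against 0 to 1.67 CPM with overlapping groups. Counting intervals cover the counting error only. Muc1, Trf, Ky, Kctd12, Anxa1, Myo1d, Camk2n1, Cdkn1a and Nck2 were the 9 genes of the 42 that lost the call with mouse as a block in the 10 libraries.

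Cxcr5, the receptor for the B cell follicle chemokine CXCL13 and the defining receptor of follicular regulatory T cells, was the only gene called lower in the 14-group fit. With mouse as a block in the 10 libraries, 50 genes were called lower. It was at 43.2, 62.9, 19.9, 28.9 and 18.7 CPM in ST2+ CD44hi Tregs and at 202, 175, 173, 186 and 201 CPM in ST2- CD44hi Tregs (chr9:44511787-44561877). Every ST2+ library was below every ST2- library, and central Tregs, at 28.6 to 62.5 CPM, lay in the range of the ST2+ Tregs. The log2 fold change was -2.43 ± 0.60, 5.40-fold lower, with an adjusted p of 0.048 over the 14 groups and 0.00029 with mouse as a block in the 10 libraries (edgeR's quasi-likelihood test). In the 14-group fit the call was lost without any single spleen CD44hi library except the ST2+ library of mouse 2, with an adjusted p of up to 0.18.

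Sostdc1, a secreted BMP and WNT antagonist known from follicular T cells, was at or near 0 in ST2+ CD44hi Tregs and present in every ST2- library. Its level was 0, 0, 0.390, 0 and 0 CPM in ST2+ and 31.8, 62.8, 28.3, 26.9 and 11.9 CPM in ST2- CD44hi Tregs (chr12:36314139-36318452), and no central Treg library held a count. The ST2+ libraries held 1 count in all, and the ST2- over ST2+ ratio of scaled counts was 383 (95% counting interval 68.3 to 1.51e+04). The adjusted p was 0.086 over the 14 groups and 0.00022 with mouse as a block in the 10 libraries (edgeR's quasi-likelihood test).

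Of 15 genes of follicular regulatory T cells, only Cxcr5 passed the test, and 14 had a negative log2 fold change. The list median was -0.71 against 0 over all genes. The follicular list too was written with earlier results of these data known, so its direction is not independent evidence. In 4 of the 15 the ST2+ libraries were below without overlap, against 148 of all genes tested (1.12%). Zcchc12 was at 0 in all ST2+ libraries and at 6.96 CPM on average in the ST2- libraries, at least 27.2-fold lower in ST2+ Tregs against the floor of 3 counts over the group (adjusted p = 0.4, edgeR's quasi-likelihood test). Bcl6, the follicular lineage factor, was at 5.65 to 12.9 against 6.63 to 20.4 CPM, and Tox2 was at 42 to 73.4 against 63.4 to 144 CPM, both with overlapping groups. Pdcd1, which encodes PD-1, was the member that went the other way, at 433 to 613 CPM in ST2+ and 344 to 464 CPM in ST2- CD44hi Tregs.

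The lower genes next in order of adjusted p did not pass the test over 14 groups and are given as values. Ubac2, of an endoplasmic reticulum protein, was at 162 to 191 against 238 to 266 CPM, at an adjusted p of 0.051 in edgeR's quasi-likelihood test, and its fold was under 1.5. Tubb2a, a beta tubulin, was at 2.58 to 14.5 against 17.8 to 32.7 CPM, and passed with mouse as a block over the 14 groups (adjusted p = 0.019 against 0.055 without it, edgeR's quasi-likelihood test). Foxp1, a factor of quiescent T cells, was at 183 to 311 against 372 to 400 CPM. Dennd2d, a regulator of Rab GTPases, was at 117 to 199 against 267 to 382 CPM, Rnf19a, a ubiquitin ligase, at 43.6 to 128 against 160 to 194 CPM, and Pip4k2a, a phosphoinositide kinase, at 60.9 to 104 against 112 to 143 CPM. In all of these genes the ST2+ libraries lay below the ST2- libraries without overlap. With mouse as a block in the 10 libraries, 6 of the 10 lower genes of this order, Cxcr5 included, passed both thresholds.

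Of 16 genes of central Tregs and quiescence, none passed the test over 14 groups, and 14 had a negative log2 fold change. The list median was -0.16 against 0 over all genes. Ccr7, the receptor that leads T cells to lymphoid zones, was at 264, 226, 202, 161 and 237 CPM in ST2+ and 435, 444, 423, 517 and 433 CPM in ST2- CD44hi Tregs, and at 622 to 741 CPM in central Tregs. The populations were thus in separate ranges, with ST2+ lowest, and the adjusted p of ST2+ against ST2- was 0.67 over 14 groups and 0.00084 with mouse as a block in the 10 libraries (edgeR's quasi-likelihood test). Tcf7, which encodes TCF1, was at 228 to 301 against 393 to 558 CPM (adjusted p = 0.53 and 0.00011 in the same edgeR fits), and central Tregs were at 499 to 652 CPM. S1pr1, the egress receptor, was at 368 ± 55.0 CPM in ST2+ and 376 ± 26.6 CPM in ST2- CD44hi Tregs (SD, n = 5), with overlapping groups. Tcf7 and S1pr1 were picked from the list after their values were seen.

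Of the settings with more lower genes, 3 were compared gene by gene, the block in 10 libraries, the fit to these libraries alone and voom with quality weights over all groups, and 28 genes were lower in each, among them Tcf7, Ccr7, Cxcr5, Sostdc1, Tbc1d4, Gpr83 and Dpp4, a selection named after its values were seen. In the same 3 settings 48 genes were higher in each, of which 28 were among the 41 higher DEGs. Itgae, which encodes the CD103 integrin chain that binds E-cadherin, was at 443, 359, 636, 354 and 361 CPM in ST2+ and 93.1, 79.9, 137, 116 and 150 CPM in ST2- CD44hi Tregs. The groups did not overlap, and central Tregs were at 6.20 to 27.1 CPM (log2 fold change of ST2+ over ST2- 1.90 ± 0.56, adjusted p = 0.18 over 14 groups and 9.2e-05 with mouse as a block in the 10 libraries, edgeR's quasi-likelihood test). Of 16 integrin and adhesion genes, none passed over 14 groups, and the list median was 0.20.

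Genes of the helper T cell lineages were described separately, in lists also written with earlier results of these data known. Of 10 Th2 genes tested, Gata3, Ccr4 and Il9r rose and none fell, with a list median of 1.34 (0.93 with a gene at 0 in a group set to its bound), although Il4ra, the IL-4 receptor chain, was lower in ST2+ Tregs of all 5 mice at 105 to 185 against 170 to 326 CPM (adjusted p = 0.61, or 0.0091 with mouse as a block in the 10 libraries, edgeR's quasi-likelihood test). Il17rb, the IL-25 receptor chain, was at 12.0 to 33.3 against 0.419 to 7.48 CPM, without overlap and without passing the test. None of 10 Th1 genes passed (median 0.09), and Tbx21, the Th1 factor, was at 22.2 to 52.7 against 14.8 to 57.8 CPM. None of 8 Th17 genes passed (median -0.12).

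The remaining lists held few or no DEGs. None passed among 13 Treg identity genes (median 0.14), 16 TNF receptor superfamily genes (0.06), 16 NF-kB subunits and feedback genes (0.14), 15 TCR-induced genes (0.01), 16 glycolysis genes (-0.06), 15 interferon-stimulated genes (-0.16) and 11 T cell genes (-0.08). All 15 immediate early and dissociation stress genes had a positive log2 fold change, with a median of 0.29 against 0 over all genes and none called. Pparg was the single DEG of 17 lipid genes (median 0.00). None of 26 cell cycle genes passed, with a median of -0.31 against 0 over all genes and 21 negative. Mki67, the proliferation marker, was at 17.8 to 61.9 CPM in ST2+ and 28.9 to 99.1 CPM in ST2- CD44hi Tregs with overlapping groups. By flow cytometry, the study found Ki-67 protein in a larger share of ST2+ than of ST2- Tregs in the spleen. The ST2- Tregs of that measurement were not limited to CD44hi cells. Il1rl1, Gata3, Klrg1 and Il9r were the 4 DEGs of 13 genes that ST2+ Tregs are known to share with type 2 innate lymphoid cells.

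The study selected 8 genes as core ST2 genes on these same samples, so their direction in the spleen is not independent evidence. Over the 14 groups, Il1rl1, Gata3, Klrg1 and Lyn rose by edgeR's quasi-likelihood test and the other 4 did not pass, whereas by voom with quality weights, the study's own test, 7 of the 8 rose and Tbc1d4 fell. Rln3, which encodes the peptide relaxin 3, was at 95.3 to 137 against 51.4 to 79.1 CPM, Ptpn13, a phosphatase, at 138 to 282 against 42.3 to 124 CPM, and Rab4a, of early endosomes, at 15.5 to 33.0 against 0 to 9.53 CPM, each without overlap. Tbc1d4, a Rab GTPase activating protein, was at 128 to 213 CPM in ST2+ and 370 to 404 CPM in ST2- CD44hi Tregs, also without overlap, and at 117 to 224 CPM in central Tregs. Their adjusted p values over 14 groups were 0.8, 0.13, 0.058 and 0.71, and with mouse as a block in the 10 libraries 0.03, 0.0094, 0.14 and 0.00013 (edgeR's quasi-likelihood test), in the order Rln3, Ptpn13, Rab4a and Tbc1d4. By voom with quality weights in limma the adjusted p values were 0.0085, 0.00096, 0.00075 and 1.4e-05 in the same order. The list median was a log2 fold change of 1.41.

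**Figure D4:**
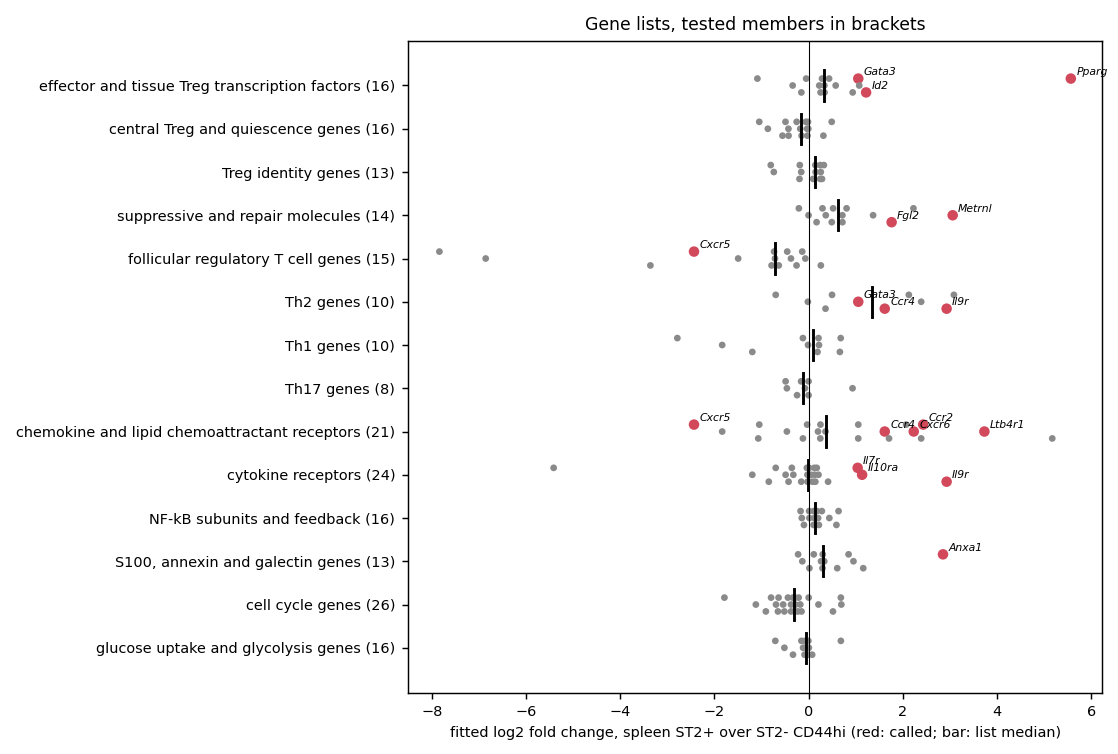
Log2 fold change of spleen ST2+ over ST2- CD44hi Tregs for the members of 14 gene lists, 1 point per gene, with the list median as a bar, DEGs in red and other genes in grey. Th2 genes have a median of 1.34, and follicular genes have a median of -0.71.

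Against central Tregs of the same spleens, ST2+ CD44hi Tregs differed in 945 of 13173 genes (7.17%), 785 higher and 160 lower. That comparison uses the same ST2+ libraries, so the levels of the 3 populations are set side by side here. In 14 of the 41 higher DEGs the mean level in central Tregs was below 1 CPM, whereas the mean level in ST2- CD44hi Tregs was below 1 CPM in 6 and at least 10 CPM in 27. Some genes were graded over the 3 populations. Klrg1 averaged 471, 49.6 and 0.452 CPM in ST2+ CD44hi, ST2- CD44hi and central Tregs, Gna15 averaged 120, 49.7 and 10.3 CPM, and Id2 averaged 347, 149 and 43.1 CPM. Gata3, by contrast, averaged 256, 123 and 98.8 CPM, and Tent5a averaged 76.3, 25.9 and 51.3 CPM, with the ST2- CD44hi Tregs lowest.

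The same contrast was made in the other tissues of these mice to see which of the 41 higher genes also differed there, with 5 libraries per population except 4 of blood ST2+ and 3 of colon ST2+ Tregs. Fewer than 220 cells were sorted for 2 of the 4 blood ST2+ libraries (202 and 55), 1 blood ST2- library (166) and 4 VAT ST2- libraries (93, 192, 118 and 135), and the part of this in the values was not tested. In lungs 15 of the 41 were called higher (36.6%), among 66 genes higher there (0.501% of genes tested, so 22.7% of the lung genes). In blood 23 were called higher (56.1%), among 296 (2.25%, 7.77% of the blood genes), and in VAT 17 (41.5%), among 167 (1.27%, 10.2% of the VAT genes). In colon 3 of the 41 were called (7.32%), among 4 genes higher there (0.0304%), and in skin 3 (7.32%), among 11 (0.0835%). The log2 fold change was positive in 41, 38, 37, 33 and 33 of the 41 genes in lungs, blood, VAT, colon and skin, where 48.7%, 45.7%, 47.0%, 52.9% and 47.9% of all genes were positive. The median log2 fold change of the 41 genes was 1.55, 1.27, 1.08, 0.49 and 0.38 in that order.

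Il1rl1 and Gata3 were called higher in all 5 other tissues. Gata3 had log2 fold changes of 1.37, 1.08, 1.40, 0.90 and 0.70 in lungs, blood, VAT, colon and skin, and Cpm was called in blood, VAT, colon and skin. Klrg1, at 3.93 and 5.33 in lungs and blood, was called there, and its values of 1.56, 1.24 and 0.95 in VAT, colon and skin did not pass in this fit. By its own test, the study called Klrg1 higher in VAT and colon too, and not in skin. By flow cytometry, it found KLRG1 protein on a larger share of ST2+ than of ST2- Tregs in every tissue. Ccr2, Ccr4 and Cxcr6 were called in blood alone of the other tissues, with log2 fold changes of 2.69, 1.90 and 1.54. They had values between -0.75 and 0.20 in colon and skin. In lungs their log2 fold changes were positive but did not pass in this fit. The study's own DEGs, by voom with quality weights, include each of them in lungs and Ccr2 in VAT. Pparg, Ctsh, Trf, Myo1d, Muc1, Rtn4rl1, Camk2n1, Arl4a and Kctd12 were called in no other tissue, and Pparg had log2 fold changes of 4.25, 2.58, 2.78, 3.54 and 1.80 there. A call in one tissue and none in another does not show that the effects differed, which was tested directly for lungs and blood.

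**Figure D5:**
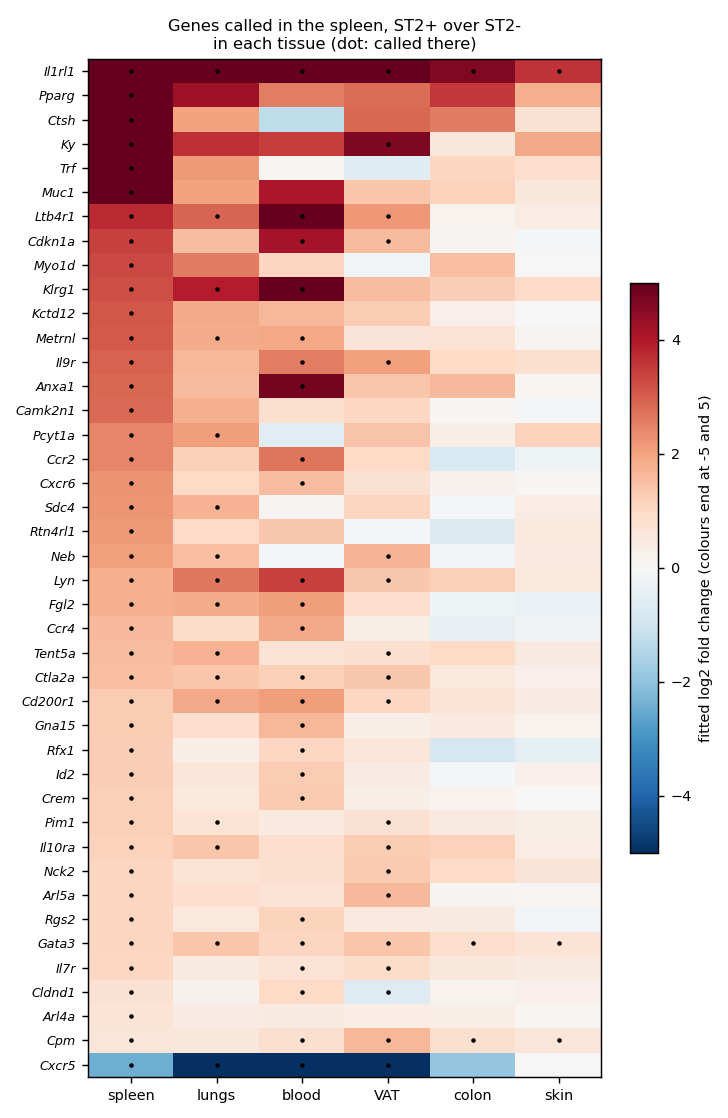
Log2 fold change of ST2+ over ST2- CD44hi Tregs in each of 6 tissues for the 42 spleen DEGs, as colour on a scale that ends at -5 and 5, with a dot where the gene was called in that tissue. Most genes keep their direction in lungs, blood and VAT, and the colours are weaker in colon and skin.

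No gene had a different ST2 effect in spleen and lungs (0 of 13173, 0%) in edgeR's quasi-likelihood test, with 526 genes at an unadjusted p under 0.05, and 27 genes by DESeq2 and 20 by voom with quality weights. The smallest adjusted p by edgeR's quasi-likelihood test was 0.29, for Klf2 and Kit. Between spleen and blood, 13 genes differed in their ST2 effect (0.0987%), 9 with a more positive value in spleen and 4 with a more negative one.

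Of the DEGs of the spleen contrast, Cxcr5 and Neb were among those 13. Cxcr5 was lower in ST2+ Tregs of both tissues. In blood it was at 0 in all 4 ST2+ libraries and at 68.5 to 129 CPM in the 5 ST2- libraries, at least 271-fold lower against a floor of 3 counts over the ST2+ group, whereas in spleen it was 5.40-fold lower (adjusted p of the difference 0.013, edgeR's quasi-likelihood test). Neb was higher in ST2+ Tregs of the spleen, with a log2 fold change of 2.06, and was at -0.10 in blood, where levels were 58 to 206 and 85.7 to 170 CPM (adjusted p of the difference 0.043, edgeR's quasi-likelihood test). The other 11 genes did not pass in spleen. Nfil3, of a basic leucine zipper factor, had a log2 fold change of -0.15 in spleen and 2.26 in blood, and Areg had 0.72 and 3.57. Satb1, the chromatin organiser, was at 0.49 in spleen and -2.27 in blood, and Slc7a5, the large amino acid transporter, at 0.70 and -2.76. Il2ra, which encodes CD25, was at 0.14 and -0.94 and Bcl2, the survival factor, at -0.43 and -2.26. The number of such genes was 7, 1, 0, 0 and 9 without mouse 1, 2, 3, 4 or 5.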

How the data were processed

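RNA of 220 sorted Tregs per spleen library, and of 55 to 220 per library elsewhere, was amplified with SMART-Seq v4 and prepared with NexteraXT. The authors deposited raw counts per gene, from 58-base single reads aligned with STAR to GRCm38 (Ensembl 91) and counted with HTSeq 0.4.1. The sources used here do not give strand setting or counting mode, so overlapping genes cannot be told apart. Protein-coding genes (GENCODE M21, GRCm38) that reached 1 CPM in 10% or more of the 67 libraries above 1000000 counts (3 were left out) were tested, 13173 in all, with TMM factors and edgeR 4.0.16 in R 4.3.3, 1 term per group of 14. DEGs changed at least 1.5-fold at an adjusted p (Benjamini-Hochberg) no greater than 0.05.

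Libraries with the same number come from the same animal. Deviations from the group means correlated within a mouse with a mean r of 0.134 in 5 pairs over 8922 genes (0.0468 to 0.2205), against -0.0327 between mice. Subtracting the group means ties the value between mice to that within mice, so it is no independent reference.

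Genes were named by a rule: called genes, the 10 lower genes with the smallest p, the leading member of each of 35 gene lists, genes the study names, and the leading differences of the ST2 effect between spleen and lungs or blood. The comparison, rule and lists were chosen with earlier results of these data known, and further list members were picked after their values were seen. Values of a few genes the rule selects are not reported here. Of 2 gene IDs named Aldoa, the more abundant was used.

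Alternatives were DESeq2 1.42.0, limma 3.58.1 with voom, glmTreat, mouse as a block, fewer groups, other scaling and gene filters, all 70 libraries, and leaving out libraries or mice. On simulated counts for the spleen comparison (13173 genes), edgeR recovered 41% of genes changed 2-fold and 77% of those changed 4-fold with 3 false calls. Voom with quality weights recovered 47% and 74% with 21, and DESeq2 49% and 81% with 21. These counts used the spread estimated by edgeR, without mouse effects or differences in library quality, and no gene of low level was changed. They therefore do not rank the methods on the real data. Python 3.11.15 with pandas 2.3.3, numpy 2.4.6, scipy 1.17.1 and matplotlib 3.10.9 were used for tables and plots.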

Additional observations from a re-analysis of the deposited data

Results flagged for a closer look

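Single libraries stood apart from the other 4 of their group in 9 of 120 groups of levels looked at, judged by the gap to the nearest library as a share of the range. Chance gives this in about 1 of 20 groups, and only groups with a median of at least 1 CPM were looked at. In the ST2- CD44hi group the library of mouse 5 was the high one for Klrg1 (gap 0.830 of the range) and for Cxcr6 (0.845) and the low one for Gna15 (0.717). Among ST2- libraries, mouse 1 was also low for Il10ra (0.813) and mouse 4 high for Ccr7 (0.769). In the ST2+ CD44hi group mouse 2 was low for Klrg1 (0.725) and mouse 1 low for Neb (0.717), and mouse 3 was high for Myo1d (0.805) and for Ptpn13 (0.714). Leaving out the ST2- library of mouse 5 lost neither the call of Klrg1 nor that of Cxcr6, and what set these libraries apart was not tested.

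The 13 genes whose ST2 effect differed between spleen and blood are given as the log2 fold change in spleen minus that in blood, with an adjusted p of 0.013 to 0.044 by edgeR's quasi-likelihood test. The difference was positive for Cxcr5 (8.17, a fitted value that is no bound since all 4 blood ST2+ libraries were at 0), Slc7a5 (3.46), Satb1 (2.76), Chchd10 (2.39), Neb (2.17), Tec (1.97), Bcl2 (1.83), Il2ra (1.08) and Foxn3 (0.94). It was negative for Areg (-2.86), Nfil3 (-2.41), Neu3 (-2.41) and Ctsa (-0.75). Satb1 was at 411 to 804 CPM in blood ST2- and 108 to 209 CPM in blood ST2+ CD44hi Tregs, and Chchd10 was at 33.7 to 43.8 and 2.76 to 4.97 CPM. Nfil3 was at 1.25 to 63.2 CPM in blood ST2- and at 111 to 154 CPM in blood ST2+ CD44hi Tregs.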

How the results depend on the processing

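The 42 DEGs gave 1302 gene values under 31 alternatives, of which 971 kept the call, 331 lost it and 0 changed sign; Il1rl1, Il9r, Klrg1, Metrnl and Neb kept it throughout. The cause of the moves below was not tested. Numbers of DEGs (total, higher and lower) were 100, 82 and 18 by DESeq2, 225, 133 and 92 by voom with quality weights, 79 and 28 lower by voom without weights, 11, 11 and 0 by glmTreat, 93 and 34 lower in the groups compared only, 77 and 33 lower in the 3 spleen groups, 115, 76 and 39 by voom with quality weights in the groups compared only, and 24, 24 and 0 with all 70 libraries. With mouse as a replicate block they were 130, 80 and 50 in the groups compared only, 234, 135 and 99 by voom with a within-mouse correlation, and 2 lower over 14 groups. Lower DEGs numbered 2 with 1 CPM in 50% of libraries and 0 with all gene types. ST2+ against central Tregs gave 1856 DEGs by voom with quality weights, 567 by glmTreat, 1895 by voom with the replicate block, 1499 in the 3 spleen groups and 1591 by voom in the groups compared only. The ST2 effect differed between spleen and lungs in 27 genes by DESeq2, 20 by voom with quality weights, 4 without weights, 17 with the replicate block in the groups compared only, 29 by voom with the block, 5 in the groups compared only and 6 by voom there. Between spleen and blood these numbers were 99, 47, 58, 27, 58, 21 and 22, with 1 by glmTreat and 3 with all 70 libraries.

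Leaving out 1 spleen library gave 28 to 44 DEGs, 28 to 41 higher and 0 to 3 lower, and leaving out all libraries of a mouse gave 16 to 30, 16 to 29 and 0 to 2. Against central Tregs the ranges were 835 to 943 and 653 to 784, for the difference from lungs 0 to 0 and 0 to 1, and for that from blood 2 to 11 and 0 to 9. The replicate block over 14 groups changed no call of the 42. In the groups compared only, 8 were lost without the block and 9 with it. At about 2 counts per CPM, genes near 1 CPM are imprecise, and 5 mice limit every p-value.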

Other observations

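Chromosome 9 held 9 of the 42 DEGs (21.4%), against 748 of the 13173 genes tested (5.68%). They were Tent5a, Ccr2, Cxcr6, Trf, Ky, Ccr4, Ctsh, Il10ra and Cxcr5. Ccr2 and Cxcr6 lie close to each other on that chromosome and differed in the same direction, whereas Cxcr5 lies far from both and differed in the other. The share was noticed after the values were seen and was not tested.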
